A study of Mus musculus with 5 samples.

Results

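Keratins, desmosomal proteins and a small set of regulators of epithelial identity make up the gene set described here. Keratins are the intermediate filament proteins of epithelial cells, and desmosomes are the junctions that anchor those filaments from cell to cell. The set holds 69 of the 56196 rows of the deposited count table: 50 keratin genes named Krt and a number, 9 desmosomal cadherins (Dsg and Dsc genes), and 10 genes named singly (Epcam, Trp63, Dsp, Pkp1, Pkp3, Jup, Esrp1, Grhl2, Grhl3 and Sfn). Members were taken by symbol, but the list was chosen from values measured in these libraries, because many of its genes stood high in the library labelled wild type 2. That contrast is therefore a description here, with no test. Krt6a, Krt6b, Krt33a and Krt33b, whose symbols end in a letter, fall outside the naming rule.

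The study sequenced polyadenylated RNA of untreated C57BL/6 mouse forebrain at E12.5, a stage of early neurogenesis, in 5 libraries from littermates per the submitters, 3 with the EedcKO label and 2 with the wild type label. EED is a core subunit of Polycomb repressive complex 2, which methylates histone H3 at lysine 27, and the comparison addresses what its deletion does to the forebrain transcriptome. The sources used here do not name the Cre driver behind the conditional deletion, the Cre status of the wild type embryos or the litter of each library. They do not state whether each library is a different embryo, and p-values therefore reflect only the spread among these libraries, which may be technical in part.

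The targeted gene goes against 1 label. Eed had 404 counts in wild type 1, and 251, 233 and 247 counts in EedcKO 1, 2 and 3. The library labelled wild type 2 had 238 Eed counts, within the range of the EedcKO libraries, and every direction drawn from it below carries that reservation. Deposited counts summed to between 4820630 and 5026381 per library, so depth was nearly equal. All 14 genes of a telencephalon marker list had at least 10 counts over the 5 libraries. So did all 10 genes of an endothelium list and all 10 of a blood list, so this minimum does not identify the tissue. Xist, transcribed from the inactive X chromosome of females, had 3127 counts in the library labelled wild type 2, 5150 in wild type 1, 5239 in EedcKO 1, 4 in EedcKO 2 and 1 in EedcKO 3, so the sexes are not balanced between the genotypes.

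Keratin filaments assemble from obligate pairs of a type I and a type II protein. Simple epithelia typically pair KRT8 with KRT18 and carry KRT7 and KRT19, the basal layer of stratified epithelia pairs KRT5 with KRT14 and adds KRT15 and KRT17, and the layers above it switch to KRT1 and KRT10. At the desmosome, desmogleins and desmocollins bridge adjacent cells, plakoglobin (Jup) and plakophilins (Pkp genes) bind their tails, and desmoplakin (Dsp) ties the plaque to keratin. Neuroepithelial cells of the early forebrain are joined by cadherin-based adherens junctions and carry nestin and vimentin filaments instead, while surface ectoderm, its placodes and the oral epithelium express keratins, desmosomal genes and the transcription factor p63 (Trp63).

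Across the set, the library labelled wild type 2 held 2448 counts of member genes, against 705 in wild type 1, 562 in EedcKO 1, 528 in EedcKO 2 and 625 in EedcKO 3. The member genes thus took 0.0518% of the counts on named genes in that library and between 0.0109% and 0.0143% in the other 4. Scaled to library size, its rate was 3.96 times that of the other 4 libraries pooled (95% counting interval 3.74 to 4.19). This interval, and each of the ratio intervals below, covers counting error only. In whole tissue, fewer cells of a type and less RNA per cell cannot be told apart. Of the 69 members, 24 had no count in any library, 21 others stayed under 10 counts over the 5 libraries, and 24 reached that minimum and are described one by one. The 45 members under the minimum summed to at most 8 counts each and to 18 counts in the library labelled wild type 2, beside 5 to 15 in each other library.

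Of the 24 described members, 19 had a scaled count (CPM, the count over the TMM-scaled library size) in the library labelled wild type 2 at least 2-fold above each of the other 4 libraries, with 3 counts per library as the floor. Over all 15896 genes with at least 10 counts, 2.62% met the same criterion. The members were picked on this contrast, so nothing is read from that difference in share. With another library in that place, 0 of the 24 members met it: the share of all genes was 0.812% for wild type 1, 0.239% for EedcKO 1, 0.22% for EedcKO 2 and 0.0818% for EedcKO 3. These counts rest on no test. With wild type 1 left out of the comparison, 20 members and 648 of all genes stood at least 2-fold above each remaining library, against 19 and 416. The plot of members by library shows the library labelled wild type 2 as the highest of the 5 for 23 of the 24, with Krt10 as the exception. The just-included member was Epcam, 2.19 times the highest other library, and the member just outside was Krt73, at 1.52 times. The median ratio to the highest other library was 5.02 over the 24 members and 0.871 over all genes with at least 10 counts. A count of 0 in a library allows up to 3 counts, or 0.609 to 0.631 CPM.

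**Figure D1:**
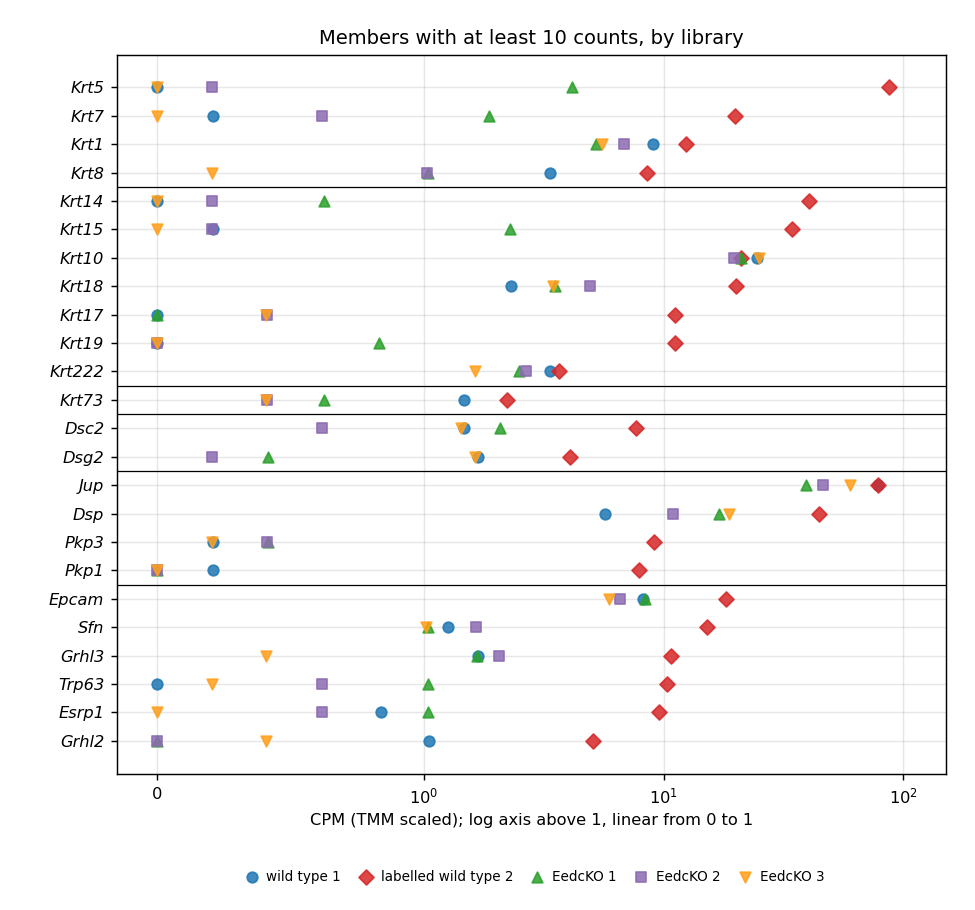
Scaled counts (CPM) of the 24 members with at least 10 counts, 1 row per gene and 1 marker per library, on an axis that is linear from 0 to 1 and logarithmic above. Horizontal lines separate type II keratins, type I keratins, the hair keratin, desmosomal cadherins, plaque proteins, and regulators with Epcam and Sfn; the red diamond of the library labelled wild type 2 lies farthest right in 23 rows, while Krt10 and Jup show it among or level with the others.

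Krt5 and Krt14, the basal pair, had among the highest ratios of the members. Krt5, the type II keratin of basal cells (mm10 chr15:101707070-101712898), had 428 counts in the library labelled wild type 2, 20 in EedcKO 1, 1 in EedcKO 2, and 0 in wild type 1 and EedcKO 3. Its rate in the library labelled wild type 2 was 79.7 times that of the other 4 pooled (51.5 to 130). On the length-scaled measure TPM (transcript abundance per length), 191 TPM placed Krt5 above 96.0% of the genes listed in that library, against 9.28 TPM in EedcKO 1 and 0.455 TPM in EedcKO 2. Krt14, its type I partner (chr11:100203162-100207548), had 200 counts there, 3 in EedcKO 1, 1 in EedcKO 2 and 0 in the remaining libraries. Its ratio to the pooled others, 196 (75.2 to 725), was the highest of all members and rests on 4 counts outside the library labelled wild type 2. At 112 TPM, Krt14 lay above 88.6% of the listed genes.

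Krt15, a further type I keratin of basal cells (chr11:100131758-100135928), followed the same order of libraries. It had 169 counts in the library labelled wild type 2, 11 in EedcKO 1, 1 each in wild type 1 and EedcKO 2 and 0 in EedcKO 3, for a ratio of 50.9 (29.0 to 97.5) and a level of 94.0 TPM. Krt17, a type I keratin of early surface ectoderm and of skin appendages (chr11:100256217-100261029), had 55 counts in the library labelled wild type 2, 2 each in EedcKO 2 and EedcKO 3 and 0 in wild type 1 and EedcKO 1. The ratio was 53.8 (19.9 to 204). Wild type 1, the library with the same label, thus held 1 count over these 4 basal keratins. EedcKO 1 was the highest of the other 4 for Krt5, Krt14 and Krt15, but not for Krt17.

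Keratins of simple epithelia were also highest in the library labelled wild type 2, with a wider spread of ratios. Krt19 (chr11:100140810-100148665), a type I keratin without a fixed partner, had 55 counts there, 4 in EedcKO 1 and 0 in the other 3 libraries, a ratio of 53.8 (19.9 to 204). Krt7 (chr15:101411043-101430313), a type II keratin of ducts and simple epithelia, had 98 counts there, 9 in EedcKO 1, 3 in EedcKO 2, 1 in wild type 1 and 0 in EedcKO 3, a ratio of 29.5 (16.5 to 57.4). Outside the library labelled wild type 2 and EedcKO 1, both had at most 3 counts per library.

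Krt8 and Krt18, the pair of the earliest epithelia, differed from the basal keratins in having counts in every library. Krt8 (chr15:101996698-102004482) had 42 counts in the library labelled wild type 2, 16 in wild type 1, 5 each in EedcKO 1 and EedcKO 2 and 1 in EedcKO 3, a ratio of 6.09 (3.67 to 10.3). Krt18 (chr15:102028180-102032027) had 99 counts in the library labelled wild type 2, 24 in EedcKO 2, 17 each in EedcKO 1 and EedcKO 3 and 11 in wild type 1, a ratio of 5.61 (4.09 to 7.75). Although the proteins pair, their length-scaled levels did not keep step: the ratio of Krt8 to Krt18 TPM was 0.311 in the library labelled wild type 2, 1.07 in wild type 1, 0.216 in EedcKO 1, 0.153 in EedcKO 2 and 0.0432 in EedcKO 3, the last from 1 Krt8 count. Summed TPM of the keratins past 2-fold in the library labelled wild type 2 was 226 for type II and 337 for type I.

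The keratins of differentiating epidermis did not follow this pattern. Krt10, the type I keratin of the suprabasal layers (chr11:99385254-99389364), had 104 counts in the library labelled wild type 2, 117 in wild type 1, 101 in EedcKO 1, 95 in EedcKO 2 and 122 in EedcKO 3. Its ratio was 0.935 (0.748 to 1.16), so the library labelled wild type 2 could not be told from the others within counting error. Krt1, its type II partner, had 61 counts in the library labelled wild type 2, 43 in wild type 1, 25 in EedcKO 1, 33 in EedcKO 2 and 27 in EedcKO 3, a ratio of 1.86 (1.35 to 2.55). At 1.37 times the next library, wild type 1, Krt1 stayed under the 2-fold criterion. Per length, Krt10 was at 44.9 to 56.8 TPM in all 5 libraries and Krt1 at 5.77 to 13.6 TPM. The partners thus differed in level within each library.

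Krt222, a truncated type I keratin-like gene, had 18 counts in the library labelled wild type 2, 16 in wild type 1, 12 in EedcKO 1, 13 in EedcKO 2 and 8 in EedcKO 3, a ratio of 1.44 (0.788 to 2.51). Krt73, a type II keratin of the inner root sheath of hair, had 11 counts in the library labelled wild type 2, 7 in wild type 1, 3 in EedcKO 1 and 2 each in EedcKO 2 and EedcKO 3, a ratio of 3.07 (1.26 to 7.29). The counting interval spanned equal rates for Krt222 but not for Krt73, which at 1.52 times wild type 1 stayed under the 2-fold criterion. Krt73 was the only one of the 24 hair and root sheath keratins to reach 10 counts, and 15 of the 24 had no count in any library. Summed over these 24, counts were 14 in the library labelled wild type 2, 15 in wild type 1 and 4, 5 and 7 in EedcKO 1, 2 and 3.

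By class, the type II keratins of simple and stratified epithelia (11 members) summed to 633 counts in the library labelled wild type 2, 64 in wild type 1, and 61, 44 and 30 in EedcKO 1, 2 and 3, a ratio of 12.4 (10.6 to 14.7). The 15 type I keratins summed to 705, 147, 149, 140 and 149 counts in the same order, a ratio of 4.71 (4.22 to 5.27). Most type I counts outside the library labelled wild type 2 belonged to Krt10. The plot of ratios with their counting intervals orders the members from Krt14 at the top to Krt10 at the bottom.

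**Figure D2:**
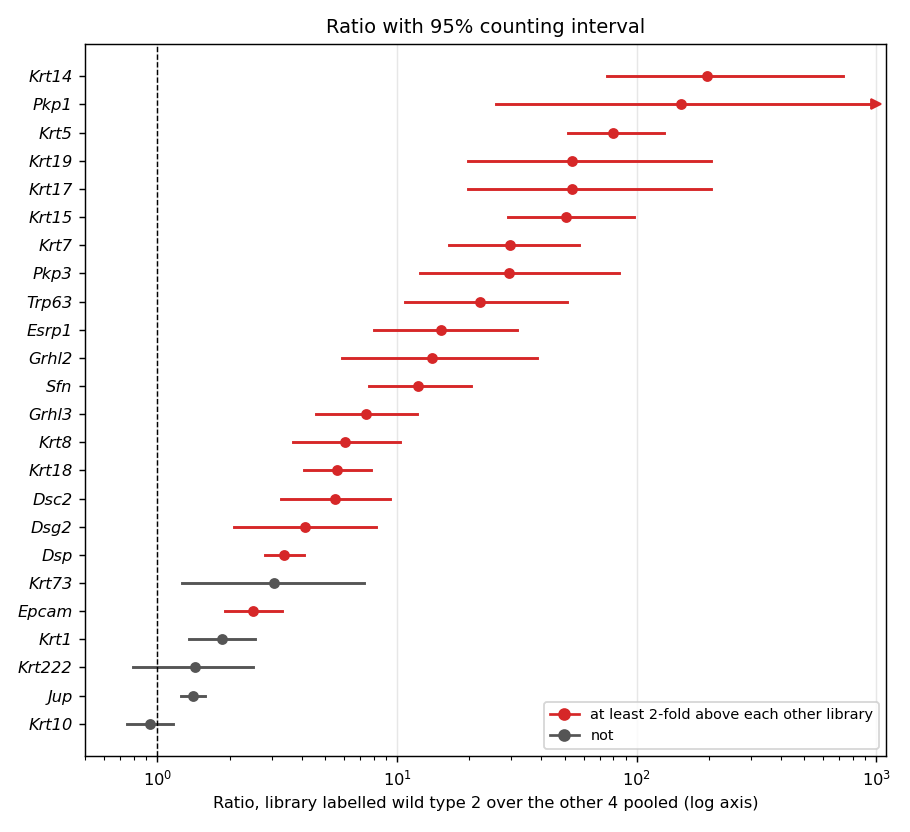
Ratio of the scaled rate in the library labelled wild type 2 to that of the other 4 libraries pooled for the 24 described members, on a log axis, with 95% counting intervals as bars; the arrow marks an interval (Pkp1) that runs past the axis. Red marks the 19 members at least 2-fold above each other library, from Epcam at 2.52 to Krt14 at 196, and grey the 5 others, of which Krt10 at 0.935 is the lowest.

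Promoter sequences are shown for members whose pattern differed, to set the start region of a gene at 0 counts in wild type 1 (Krt5) beside 2 that were past 2-fold with counts in all libraries (Sfn, Epcam) and one at a like level in all libraries (Krt10). RefSeq (GRCm38.p6) promoters, from 250 bases before to 50 after the annotated start, were matched by symbol for 12 of the 24 described members. For 2 of these, Krt14 and Krt7, the RefSeq start lies 1518 and 1360 bases inside the gene as the mm10 gene models place it, so their windows are not the start region of that gene model and are not shown. Each runs 5′ to 3′ on the gene's strand, and capitals mark CAGGTG or its reverse complement CACCTG, the E-box letters that SNAI and ZEB repressors of epithelial genes are known to bind.
The Krt5 window is chr15:101712856-101713155 (minus strand), Sfn chr4:133602119-133602418 (minus), Epcam chr17:87635729-87636028 (plus) and Krt10 chr11:99389315-99389614 (minus).
Krt5: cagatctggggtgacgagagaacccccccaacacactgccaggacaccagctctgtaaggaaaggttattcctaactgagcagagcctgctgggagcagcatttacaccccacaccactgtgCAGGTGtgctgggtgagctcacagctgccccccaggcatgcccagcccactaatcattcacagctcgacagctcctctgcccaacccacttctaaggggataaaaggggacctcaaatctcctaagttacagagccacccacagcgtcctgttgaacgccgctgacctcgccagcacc
Sfn: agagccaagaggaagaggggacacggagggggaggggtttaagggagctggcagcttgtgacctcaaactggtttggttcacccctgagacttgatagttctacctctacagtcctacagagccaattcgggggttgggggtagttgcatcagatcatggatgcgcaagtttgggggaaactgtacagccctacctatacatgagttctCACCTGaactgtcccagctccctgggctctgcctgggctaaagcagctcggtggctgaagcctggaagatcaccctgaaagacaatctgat
Epcam: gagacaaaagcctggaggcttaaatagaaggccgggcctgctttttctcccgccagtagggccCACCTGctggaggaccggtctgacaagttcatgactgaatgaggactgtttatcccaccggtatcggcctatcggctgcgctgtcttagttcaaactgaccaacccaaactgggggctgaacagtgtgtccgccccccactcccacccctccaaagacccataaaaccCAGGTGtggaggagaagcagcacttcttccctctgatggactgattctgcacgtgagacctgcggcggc
Krt10: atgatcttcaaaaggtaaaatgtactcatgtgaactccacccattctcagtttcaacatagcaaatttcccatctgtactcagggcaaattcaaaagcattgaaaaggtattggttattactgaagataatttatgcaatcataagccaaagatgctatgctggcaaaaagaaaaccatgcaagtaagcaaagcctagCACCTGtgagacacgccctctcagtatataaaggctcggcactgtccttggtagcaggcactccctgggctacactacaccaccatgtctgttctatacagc

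Both strands were searched for 5 motifs in 32851 promoters of 300 bases. The letters CAGGTG, on either strand, were found in 9 of the 12 matched members (Dsp, Epcam, Grhl3, Krt10, Krt18, Krt5, Krt7, Krt8 and Sfn) and in 20.2% of all promoters. With the Krt14 and Krt7 windows left out, they were found in 8 of 10. These were 7 of 7 members past 2-fold and 1 of 3 not past it (Krt10, but not Jup or Krt73). That split uses the contrast the members were picked on and covers few promoters, so nothing is read from it. For Krt8 the RefSeq start lies 140 bases inside the gene model. The match began 128 bases before the start in Krt5 and 41 before it in Sfn, and Epcam had 2 matches, 187 and 19 bases before its start. For the TATA box core TATAA, 4 of the 12 matched (24.9% of all promoters), and for the GC box GGGCGG, 5 of the 12 (35.7%). The AP-1 letters TGANTCA (7.81% of all promoters) and the palindrome AACCGGTT known for GRHL binding (0.146%) were in 0 of the 12. In these members no match of 1 motif overlapped a match of another, and in Krt8 TATAA overlapped its own reverse complement. A match describes letters in this window only, and the other 12 described members were not matched.

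Desmosomal genes differed among themselves in the same libraries. Dsp, desmoplakin, the plaque protein that binds keratin filaments (chr13:38151294-38198577), had 220 counts in the library labelled wild type 2, 27 in wild type 1, 82 in EedcKO 1, 53 in EedcKO 2 and 92 in EedcKO 3. Its ratio of 3.39 (2.82 to 4.08) was among the lowest of the members past 2-fold, and each EedcKO library held Dsp counts too. Wild type 1 was the lowest library for Dsp. Plakophilin 1 (Pkp1, chr1:135871395-135919207), a plakophilin of stratified epithelia, had 39 counts in the library labelled wild type 2, 1 in wild type 1 and 0 in each EedcKO library, and plakophilin 3 (Pkp3, chr7:141078218-141090510) had 45 counts there and 1 to 2 in each other library. The ratios were 153 for Pkp1 (25.8 to 6179, from a single count outside) and 29.3 for Pkp3 (12 to 84).

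Jup, plakoglobin, is shared by desmosomes and adherens junctions (chr11:100368958-100397763) and had the most counts of the set. It had 387 counts in the library labelled wild type 2, 372 in wild type 1, 188 in EedcKO 1, 224 in EedcKO 2 and 292 in EedcKO 3. The 2 libraries labelled wild type were level, at 78.2 and 78.5 CPM, and both lay above the 3 EedcKO libraries at 39.2, 46.2 and 59.7 CPM. The values of Jup thus sat with the labels and not with the contrast of the library labelled wild type 2 against the rest, a difference whose test is given with the genotypes.

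Among the desmosomal cadherins, the widely expressed Dsc2 and Dsg2 were the ones to reach 10 counts. Dsc2, desmocollin 2, had 38 counts in the library labelled wild type 2, 7 in wild type 1, 10 in EedcKO 1, 3 in EedcKO 2 and 7 in EedcKO 3, a ratio of 5.51 (3.27 to 9.38). Dsg2, desmoglein 2, had 20, 8, 2, 1 and 8 counts in the same order, a ratio of 4.12 (2.09 to 8.16). The basal-layer cadherins Dsc3 and Dsg3 had 3 counts each in the library labelled wild type 2 and at most 1 in any other library. The other 5 desmosomal cadherins had no count in any library.

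All 6 members in the class of regulators, Epcam and Sfn were past 2-fold. Trp63, the p63 transcription factor that maintains basal epithelial cells (chr16:25683763-25892102), had 51 counts in the library labelled wild type 2, 5 in EedcKO 1, 3 in EedcKO 2, 1 in EedcKO 3 and 0 in wild type 1, a ratio of 22.2 (10.8 to 51.2). Its libraries ran in the order seen for Krt5 and Krt15 at the top, with EedcKO 1 second. Grhl2 (chr15:37233036-37363569) and Grhl3 (chr4:135541888-135573630) encode grainyhead-like factors of surface ectoderm, which are needed for neural tube closure. Grhl2 had 25 counts in the library labelled wild type 2, 5 in wild type 1, 2 in EedcKO 3 and 0 in EedcKO 1 and EedcKO 2, a ratio of 14 (5.88 to 38.3). Grhl3 had 53 counts there, 8 in wild type 1, 8 in EedcKO 1, 10 in EedcKO 2 and 2 in EedcKO 3, a ratio of 7.41 (4.60 to 12.2). The factors thus differed in which library came second.

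Esrp1, an RNA-binding protein that sets epithelial splice forms (chr4:11331933-11386783), had 47 counts in the library labelled wild type 2, 5 in EedcKO 1, 4 in wild type 1, 3 in EedcKO 2 and 0 in EedcKO 3, a ratio of 15.3 (8.0 to 31.7). Sfn, the epithelial 14-3-3 protein sigma (chr4:133600556-133602168), had 75 counts there, 6 in wild type 1, 5 in EedcKO 1, 8 in EedcKO 2 and 5 in EedcKO 3, a ratio of 12.2 (7.63 to 20.3). Epcam, an adhesion protein of simple and embryonic epithelia (chr17:87635979-87651129), was the most evenly spread of the 6. It had 90 counts in the library labelled wild type 2, 39 in wild type 1, 40 in EedcKO 1, 32 in EedcKO 2 and 29 in EedcKO 3, a ratio of 2.52 (1.91 to 3.30). The class summed to 341 counts in the library labelled wild type 2 against 39 to 63 in each other library, a ratio of 6.06 (5.10 to 7.22).

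The 19 members past 2-fold were summed to compare the remaining libraries. They held 1849 counts in the library labelled wild type 2, 135 in wild type 1, 228 in EedcKO 1, 152 in EedcKO 2 and 167 in EedcKO 3. EedcKO 1 was the highest of the other 4 for 10 of these 19 members, wild type 1 for 4, EedcKO 2 for 4 and EedcKO 3 for 1. Of the 19, 5 had 0 counts in wild type 1, 3 in EedcKO 1, 3 in EedcKO 2 and 7 in EedcKO 3. The 5 described members that were not past 2-fold (Jup, Krt1, Krt10, Krt222 and Krt73) summed to 581, 555, 329, 367 and 451 counts in the same order of libraries as the 19 above. The name of epithelial genes standing out in the library labelled wild type 2 therefore holds for 19 of the 24 and not for these 5.

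Genes with at least 20 counts in the library labelled wild type 2 were ranked by the ratio to the highest other library. Of these 13029 genes, 22 were members, which took 5 of the first 10 places and 9 of the first 20. The members were picked on this contrast, so nothing is read from their places. Krt14 was first, Krt5 in place 4, Krt17 in place 5, Krt15 in place 8 and Pkp3 in place 10. Krt10 was in place 7761. The genes between them that are no members, named as the highest-ranked ones, included Gabrp (190 counts in that library, 7 in EedcKO 1, 0 elsewhere), Trim29 (67, with 1 in EedcKO 1 and 0 elsewhere), Irx4 (52, with 1 in EedcKO 1 and 0 elsewhere) and the tight junction gene Cldn4 (46, with 2 in wild type 1 and 1 in EedcKO 1). Ppl, a plakin of the cornified envelope, had 55 counts there, 5 in wild type 1, 2 in EedcKO 1 and 0 elsewhere. Not all were epithelial: Myog, the muscle regulator myogenin, had 36 counts there, 3 in EedcKO 1 and 0 elsewhere, Myh3, an embryonic myosin, had 76 there and 2 to 6 elsewhere, and Pax1, a factor of sclerotome and pharyngeal pouches, had 55 there and 0 to 4 elsewhere. Members made up 4.57% of all genes past 2-fold in the library labelled wild type 2.

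**Figure D3:**
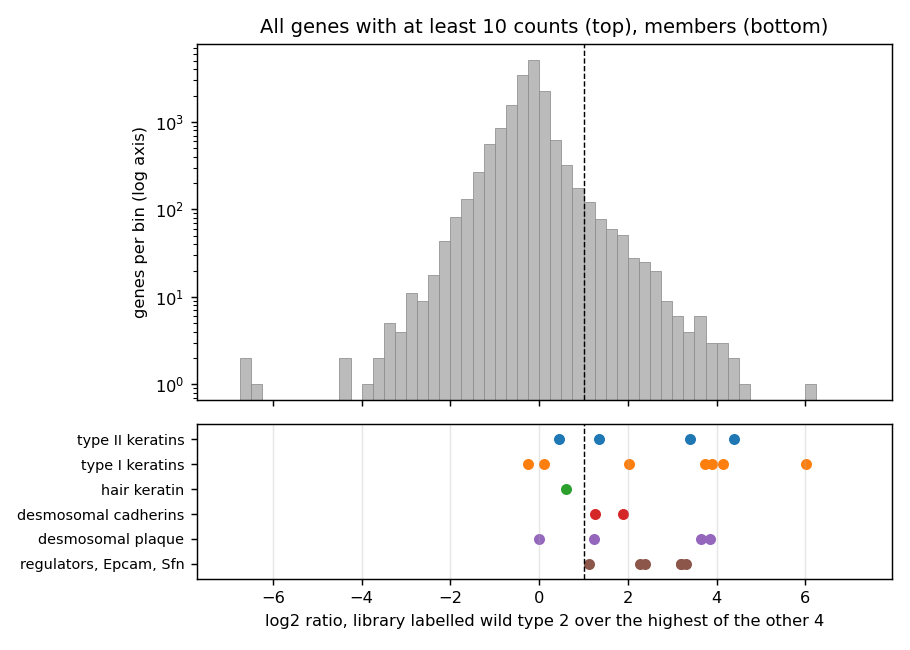
Distribution of the log2 ratio of the library labelled wild type 2 to the highest of the other 4 libraries for all 15896 genes with at least 10 counts (top, log count axis) and for the 24 described members by class (bottom, 1 point per gene). The dashed line marks 2-fold; 19 member points lie to its right with 2.62% of all genes, and Krt10 lies left of 0.

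Genes of the same epithelial biology outside the set were taken from 5 lists of 87 genes on adhesion and tight junctions, hemidesmosomes and basement membrane, the cornified envelope, transcription and splicing, and proteases, trafficking and signalling. Of these, 73 had at least 10 counts, 53 were highest in the library labelled wild type 2, and 27 (37.0%) were at least 2-fold above each other library, beside 2.62% of all genes. The lists were written with results of these data known. Perp, a p63 target needed for desmosome assembly, had 103 counts in the library labelled wild type 2, 8 in wild type 1 and 23, 26 and 20 in EedcKO 1, 2 and 3, a ratio of 5.23 (3.86 to 7.13). Wnt6, a ligand of surface ectoderm, had 69, 1, 19, 3 and 10 counts in the same order. Cdh1, E-cadherin, named after its values were seen, had 66, 19, 9, 2 and 7 counts.

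The lists differed in how many of their genes stood out. In adhesion and tight junctions, 9 of 19 described genes were past 2-fold, and in transcription and splicing 7 of 16. Among proteases, trafficking and signalling, 6 of 19 were. Of the hemidesmosome and basement membrane genes, which many non-epithelial cells also express, 2 of 12 were. Still, 9 of the 12 were highest in the library labelled wild type 2. Their sum was lowest there, at 533 CPM against 581 to 614 elsewhere. The largest term of that sum, Dst, was at 165 CPM there and 243 to 304 elsewhere. Of the cornified envelope and plakin genes, 3 of 7 were past 2-fold. Ivl, Flg, Cdsn, Sprr1a, Sprr1b and Sprr2a1, markers of mature epidermis, had no count in any library, but loricrin (Lor), also of the cornified envelope, had 29 counts in the library labelled wild type 2, 19 in wild type 1 and 8, 7 and 7 in EedcKO 1, 2 and 3, and Lgals7, an epidermal galectin, had 13, 9, 7, 15 and 6 in the same order. Tfap2c, a transcription factor of early ectoderm, ran the other way, with 279 counts in the library labelled wild type 2, 221 in wild type 1 and 484, 518 and 608 in EedcKO 1, 2 and 3.

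Markers of choroid plexus, skeletal muscle and blood were also high in the library labelled wild type 2. Choroid plexus, the secretory epithelium that forms from the dorsal midline, had 7 of 12 described genes past 2-fold, and its 13 genes had a summed level of 547 CPM in that library, 153 CPM in wild type 1, 110 in EedcKO 1, 195 in EedcKO 2 and 48.3 in EedcKO 3. Within it, Ttr, transthyretin, had 579, 147, 102, 291 and 0 counts in that order, and Kcne2, a potassium channel subunit, had 315, 25, 10, 43 and 3 in the same order. Both had EedcKO 2 as the highest EedcKO library, as did most genes of the list. Clic6, for example, had 193 counts in EedcKO 2, 33 in EedcKO 1 and 4 in EedcKO 3. Otx2, Aqp1, Prlr and Steap1 had EedcKO 1 instead, with Otx2 nearly level at 41.5 CPM against 38.6 in EedcKO 2. Among the members, Krt18, Grhl3 and Sfn had 24, 10 and 8 counts in EedcKO 2, against 17, 8 and 5 in EedcKO 1. Krt5, Krt14 and Krt15 were higher in EedcKO 1, Krt14 with 3 counts against 1 in EedcKO 2. These small count differences were not tested. Skeletal muscle had 9 of 12 past 2-fold and summed to 101 CPM there against 18.2 to 34.8 elsewhere, and Actc1, cardiac actin of embryonic muscle, had 78 counts there and 4 to 14 elsewhere. Blood had 2 of 10 past 2-fold, with all 10 highest in the library labelled wild type 2 and sums of 455 CPM there and 227 to 338 elsewhere.

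The remaining lists had at most 3 genes past 2-fold in the library labelled wild type 2. Lens genes summed to 18.5 CPM there and 10.9 to 11.9 elsewhere, with 1 of 7 past 2-fold and Cryga, Crygc, Crygd and Foxe3 at 0 in every library. Pituitary pouch genes summed to 8.7 CPM there and 3.6 to 7.0 elsewhere, with 1 of 3 past 2-fold. Macrophages and microglia summed to 125 CPM there and 87.5 to 112 elsewhere, with 0 of 10 past 2-fold. Olfactory epithelium summed to 95.1 CPM there and 83.5 to 101 elsewhere (0 of 8 past 2-fold), cartilage to 324 there and 338 to 395 elsewhere (0 of 9), and endoderm to 17.6 there and 11.6 to 18.6 elsewhere (0 of 5, with Foxn1, Foxe1 and Cdx2 at 0). Head mesenchyme and neural crest summed to 775 CPM there and 457 to 1018 elsewhere, with EedcKO 1 highest and 3 of 18 past 2-fold. Retinal pigment epithelium summed to 52.7 CPM there and 46.7 to 118 elsewhere, with 2 of 7 past 2-fold. Endothelial genes summed to 268 CPM, the lowest of the 5 libraries, and the 14 telencephalic genes to 3362 CPM there and 3603 to 3734 elsewhere. The part of any of these tissues in the member counts was not tested.

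**Figure D4:**
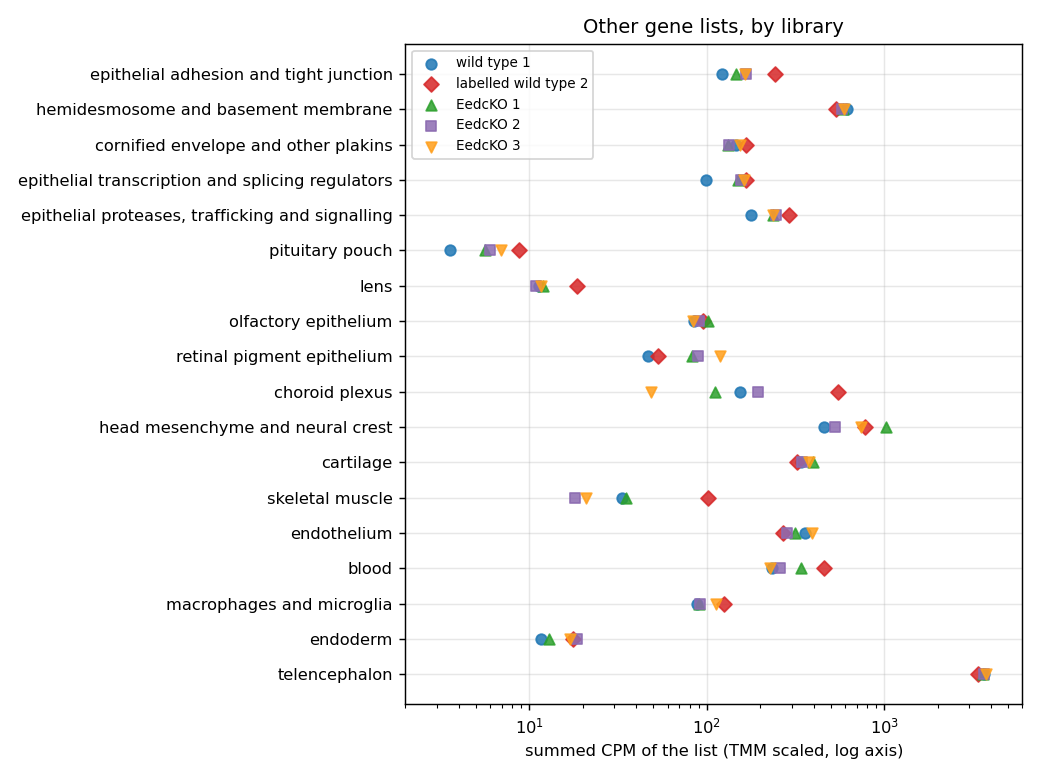
Summed CPM (log axis) of each marker list outside the gene set, 1 row per list and 1 marker per library. The red diamond of the library labelled wild type 2 lies farthest right for choroid plexus (547), skeletal muscle (101), blood (455) and adhesion and tight junctions. It also lies farthest right for the cornified envelope, transcription and splicing, protease and signalling, lens, pituitary pouch and macrophage lists. It lies farthest left for telencephalon (3362), endothelium (268), cartilage (324) and hemidesmosome and basement membrane (533).

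Between the genotypes, no member passed the test. The edgeR quasi-likelihood fit of all 5 libraries called 0 of 12 members tested at an adjusted p under 0.05, where 3.2% of all 13989 genes tested were called. At an unadjusted p under 0.05 it gave 5 of the 12, and limma-trend on TPM called 0 members. The count over all genes, 448, moved when single libraries were left out: it was 1012 without wild type 1, 882 without the library labelled wild type 2, and 262, 84 and 0 without EedcKO 1, 2 and 3. All 12 members tested were lower in EedcKO on average, with a median log2 fold change of -1.21 and adjusted p from 0.0573 to 0.902, but the high library labelled wild type 2 belongs to the wild type group. Members entered the test only past a count filter that the high library can help to pass, so this count and median support nothing by themselves. Some members with counts almost only in the library labelled wild type 2, such as Krt14, Krt17, Krt19 and Pkp1, did not pass the filter and were not tested. With DESeq2, 2 of 24 members were called where 4.48% of all genes were, and the same 2 genes, Jup and Krt8, were called by edgeR with library size alone (2 of 12, beside 4.8% of all genes) and with no count filter (2 of 45, beside 3.36%). The 2 members lay nearest the threshold in the edgeR fit, with a log2 fold change of -0.70 (SE 0.16, adjusted p 0.0716) for Jup and -2.93 (SE 0.64, adjusted p 0.0573) for Krt8.

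Without the library labelled wild type 2, the comparison of 3 EedcKO libraries with wild type 1 leaves out the library the members were chosen on, though the other 4 served as its comparators. The edgeR fit assumes that the lone wild type library varies like the EedcKO ones. It called 0 of 11 members, where 6.2% of 14232 genes were called, and 3 of the 11 had an unadjusted p under 0.05. The direction was no longer uniform: 8 members were lower and 3 higher in EedcKO, with a median log2 fold change of -0.23 and adjusted p from 0.0555 to 0.973. Jup kept nearly the same difference, -0.69 (SE 0.20, edgeR adjusted p 0.0882), and Krt8 was at -2.11 (SE 0.75, edgeR adjusted p 0.151).

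Dsp changed sign between the fits, from -0.69 (edgeR adjusted p 0.736) with all libraries to 1.46 (SE 0.37, edgeR adjusted p 0.0555) without the library labelled wild type 2. In wild type 1 it stood at 5.68 CPM, below the 10.9 to 18.8 CPM of the 3 EedcKO libraries. Krt18 likewise went from -1.49 (edgeR adjusted p 0.378) to 0.79 (SE 0.51, edgeR adjusted p 0.459). Krt5 went from -4.89 (edgeR adjusted p 0.370) to 5.83 (SE 4.08, edgeR adjusted p 0.512), a value that depends on the prior count because wild type 1 had 0 counts. Epcam was at -0.93 with and -0.23 without the library labelled wild type 2, and Krt1 at -0.87 and -0.62, with edgeR adjusted p of 0.246, 0.780, 0.156 and 0.350. Krt10 was near 0 in both, at -0.06 and -0.16 (edgeR adjusted p 0.902 with all libraries).

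Leaving out wild type 1 instead, so that the library labelled wild type 2 stands alone for its group, edgeR called 17 of 24 members where 7.02% of all genes were called. That fit is the contrast the members were picked on, and nothing is read from it. Of the 5 epithelial lists outside the set, edgeR with all libraries tested 50 genes and called 1, where 3.2% of all genes were called: Tfap2c, which rose in EedcKO (log2 fold change 1.10, adjusted p 0.0109). Without the library labelled wild type 2, edgeR called 4 of 51, where 6.2% of all genes were called, all 4 higher in EedcKO: Tfap2c (1.26, adjusted p 0.00324), the tight junction gene Patj, the basement membrane gene Fras1 and the receptor Fgfr2. Whether these differences between fits pass a test of their own was not tested.

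**Figure D5:**
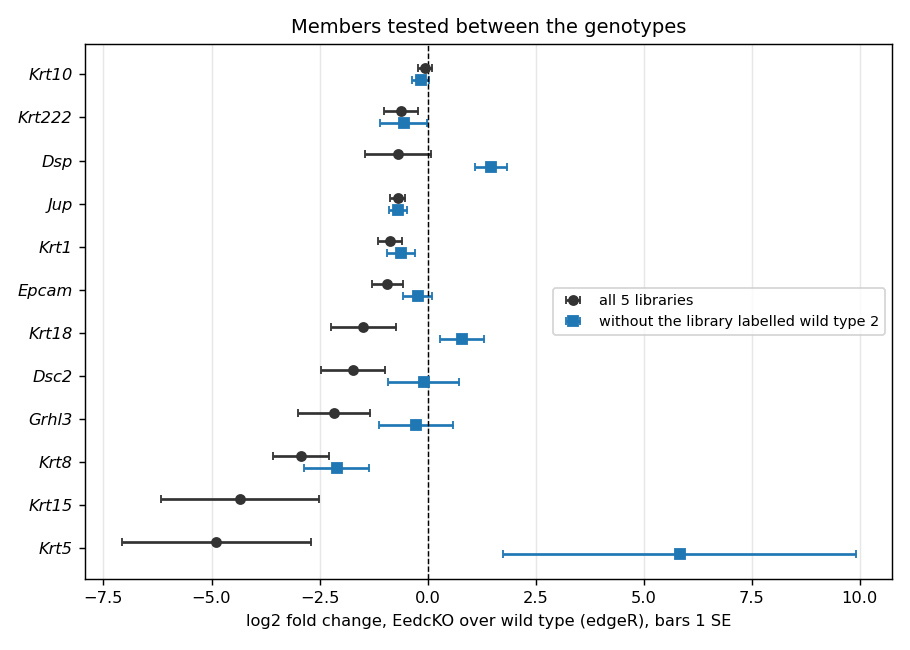
Log2 fold change of EedcKO over wild type for the members tested by edgeR, with 1 SE as bars, for all 5 libraries (black circles, 12 members) and without the library labelled wild type 2 (blue squares, 11 members; Krt15 was not tested there). Dsp, Krt18 and Krt5 lie on opposite sides of 0 in the 2 fits, while Jup is at -0.70 and -0.69.

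The counting steps limit some of these values. In the mm10 gene models, 8 described members (Dsg2, Dsp, Esrp1, Grhl2, Krt10, Krt5, Krt7 and Krt8) share exon bases with a gene on the opposite strand. The sources used here do not state whether counting used strand, so reads of such pairs may not be separable. Keratin genes also include near-identical relatives, and how reads that fit several genes were assigned is not given either.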

How the data were processed

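RNA-seq of 5 mouse forebrain libraries (3 EedcKO, 2 wild type, grouped by title) was taken from 2 tables. The authors deposited whole-number counts per gene, not normalized, and a table of TPM. Reads were aligned with HISAT2 2.2.0 to mm10, per the submitters' processing notes; the sources used here do not name the counter, its use of strand or the annotation. About 30000000 reads per library were mapped per the labels, while the deposited counts sum to between 4820630 and 5026381, a gap whose cause was not tested. Rows without a gene symbol (28277, with 2.01% to 2.16% of counts) were left out of library sizes and tests.

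The members and gene lists were chosen with earlier results of these data known. Genes were tested with edgeR 4.0.16 (quasi-likelihood, robust, TMM, filterByExpr by group, R 4.3.3), p-values were Benjamini-Hochberg adjusted over all genes tested with a threshold of 0.05, and SE is the log2 fold change over the root of F. The fit was tested on simulated data. DESeq2 1.42.0 and limma 3.58.1 on log2(TPM + 1) or log2(TPM + 0.1), for genes at 1 TPM or more, were alternatives. Ratios of the library labelled wild type 2 to the other 4 pooled carry exact 95% intervals. All members with at least 10 counts are named, with up to 4 genes per list by mean TPM and the highest-ranked others among 10; some genes that this rule names are not reported here.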

Additional observations from a re-analysis of the deposited data

How the results depend on the processing

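Of the 24 described members, 19 were at least 2-fold above each other library, and 14 were at 4-fold; other scalings, count minimums, floors and left-out libraries gave 19 or 20 (leave-one-out was added after seeing the data). For all genes that count was 416, 108 at 4-fold, 833 against the mean of the other 4, and 438 to 648 with 1 library left out, the highest without wild type 1. All 72 alternative ratios, from 3 scalings of 24 members, lay within their counting intervals.

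Genes called between the genotypes numbered 448 with edgeR. With limma-trend on TPM they numbered 244 (pseudocount 1), 280 (pseudocount 0.1) and 73 (no filter). Leaving out 1 library gave 0 to 1012: 1012 without wild type 1, 882 without wild type 2, 262, 84 and 0 without EedcKO 1, 2 and 3, the last with 1886 at an unadjusted p under 0.05. With a replicate block edgeR called 0, with 2169 at an unadjusted p under 0.05; the labels tie no numbers to litters, and same-numbered libraries correlated at -0.04 and 0.13. Members called numbered 0, 2 with library size alone, no count filter or DESeq2 (Jup and Krt8), and 0 to 17 with 1 library left out. The cause was not tested.

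Of 150 alternative log2 fold changes of 12 members, 5 reversed, all with 1 library left out. The ranges were -1.53 to 1.46 for Dsp, -2.34 to 0.79 for Krt18, -5.90 to 5.83 for Krt5 and -0.17 to 0.036 for Krt10 (0.0093 without EedcKO 2). Genes under 10 counts are not resolved at this depth.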
